A study of Mus musculus with 6 samples.

Results

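Actins, myosins, tropomyosins, troponins and the smooth muscle proteins that work with them were followed through inguinal stromal-vascular cells of C57BL/6 mice. They were taken by symbol from a list of 51 genes, and all 51 stand in the deposited table of 24197 genes. The cells are the fraction of the fat depot that holds no mature adipocytes. They received either a retrovirus carrying Prdm16, a zinc-finger regulator known from brown and beige fat cells (group Prdm16), or a control retrovirus named puro (group Puro), with 3 libraries of polyadenylated RNA per group. Both groups were thus transduced and kept in standard growth medium, no adipogenic induction is recorded, and the sources used here do not give the age and sex of the mice, the animals behind a library or the time after transduction. Nothing in the labels says that libraries of a group came from separate cultures or animals, so a p-value here measures the spread between libraries, which may be technical.

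Contraction and cell tension rest on myosin sliding along actin filaments. Fibroblasts and preadipocytes use cytoplasmic actins and nonmuscle myosin heavy chains, smooth muscle and myofibroblasts add alpha smooth muscle actin, transgelin, calponin and the light chain Myl9, and striated muscle uses sarcomeric actins, troponins and nebulin. Smooth muscle genes are known targets of serum response factor, Srf, which binds a DNA element called the CArG box together with myocardin (Myocd) or its relatives Mkl1 and Mkl2, coactivators that respond to the pool of free actin.

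Levels are given as CPM, counts scaled to library size after adjustment by the trimmed mean of M-values (TMM). Library totals ran from 28169059 to 35798201 counts, and a count of 0 allows up to 3 counts, 0.0852 to 0.104 CPM depending on the library. A log2 fold change is Prdm16 over Puro with its standard error (SE). An adjusted p is from edgeR's two-sided quasi-likelihood test, adjusted by the Benjamini-Hochberg method across the 13805 genes that passed the low-count filter, and a gene was called below 0.05. Prdm16 itself had 98437, 72525 and 89054 counts in the Prdm16 libraries, against 14, 22 and 25 in the Puro libraries, and delivered and endogenous transcripts cannot be told apart in these counts.

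Of the 51 genes, 39 passed the filter and 12 did not, and these had at most 28 counts over a group. Among the 39 tested genes, Prdm16 libraries had higher levels of 14 and lower levels of 21, and 4 did not pass. Calls were common in this comparison, since 37.5% of all tested genes were called higher and 38.0% lower, together 75.6%. The 3 libraries of each group did not overlap for 12 genes that lay higher and 22 that lay lower in Prdm16, where this held for 38.4% and 39.2% of all tested genes, together 77.6%. A log2 fold change of −1 or below was reached by 10 genes (Acta2, Actn3, Myh11, Myl9, Tpm2, Tnnt2, Cnn1, Tagln, Mkl1 and Neb) and one of 1 or above by 5 (Myh7, Myl1, Tnnc1, Tnni3 and Tagln2), where 12.1% and 9.69% of all tested genes passed these limits. The median log2 fold change of the 39 was −0.12, beside −0.01 over all tested genes. Myh7, Myl1 and Tnnt2 passed the filter through libraries of 1 group only, so a difference was built into their passing. The summed level of the 51 genes was 10883 to 11135 CPM in Prdm16 libraries and 12022 to 12200 CPM in Puro libraries. In bulk RNA, fewer cells that express a gene and less of its RNA per cell cannot be told apart.

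**Figure D1:**
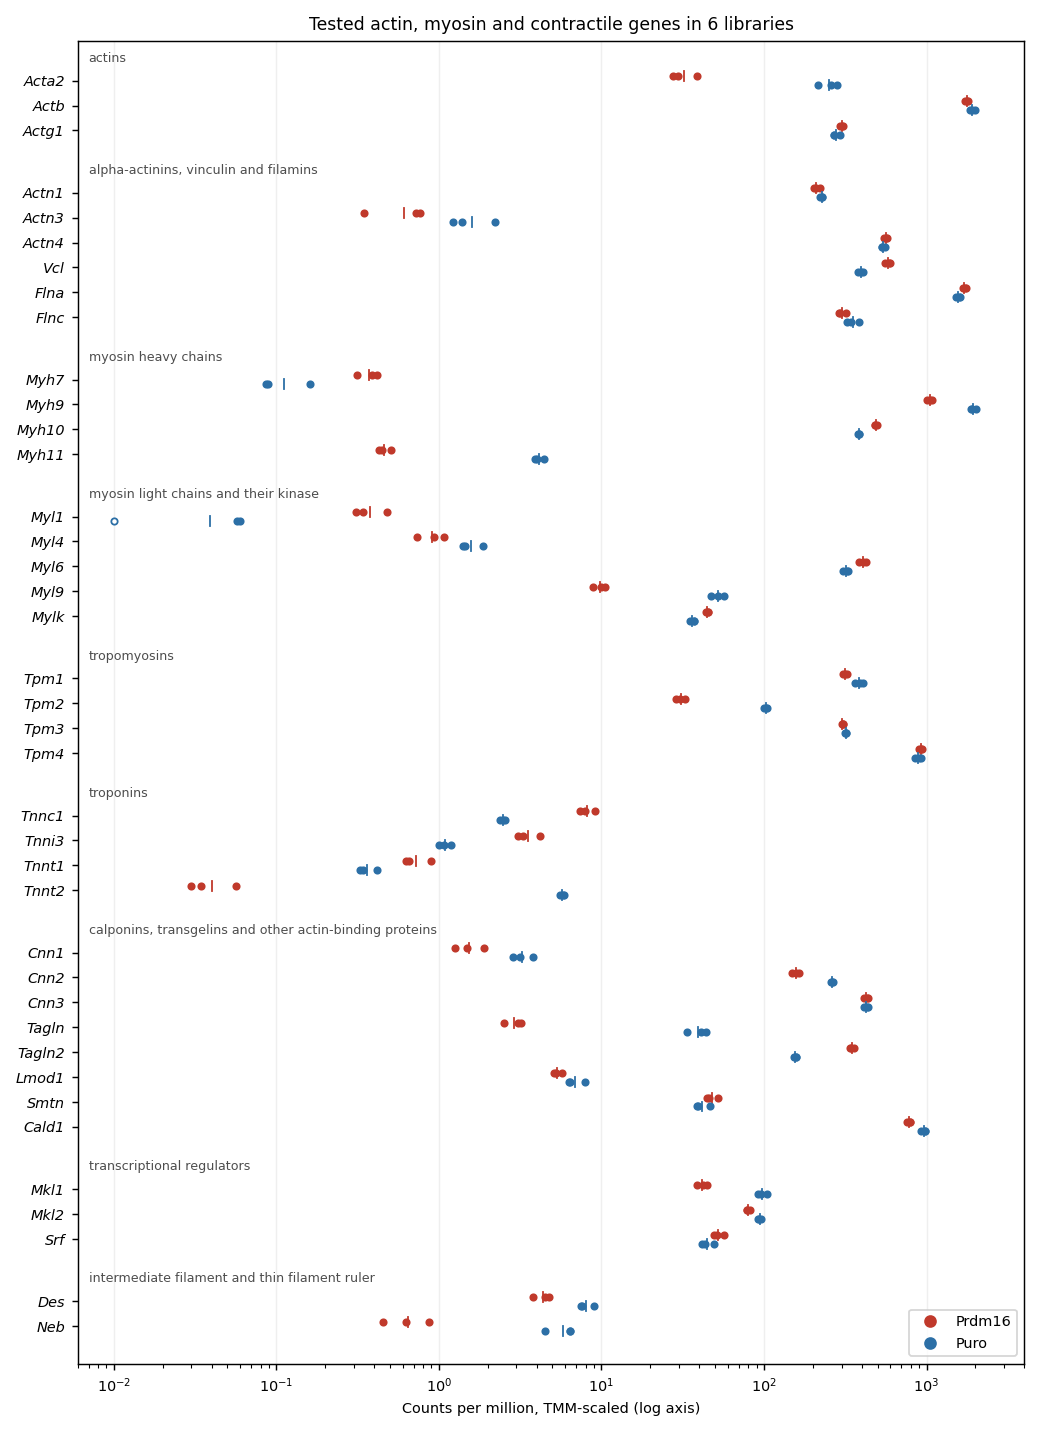
Level of each tested gene in every library as TMM-scaled CPM on a log axis, with Prdm16 (red) above Puro (blue) for each gene, points for libraries and short bars for group means; an open point at 0.01 CPM marks a count of 0. Acta2, Tagln, Myl9, Tpm2, Myh11, Neb and Tnnt2 lie well to the left in the Prdm16 libraries, while Actb, Flna and Tpm4 lie close together in both groups.

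Among the transcriptional regulators Mkl1 fell, Mkl2 fell less, Srf rose slightly and myocardin was close to absent. Mkl1 stood at 44.6, 38.9 and 41.9 CPM in the Prdm16 libraries, against 92, 95.4 and 104 CPM in the Puro libraries. The groups were far apart, with a log2 fold change of −1.21 ± 0.06 (SE, n = 3 each, edgeR adjusted p = 7.84e-09). Mkl2, its close relative, had 78.2, 82.2 and 78.5 CPM in the Prdm16 libraries, against 95.8, 92.2 and 93.6 CPM in the Puro libraries (log2 fold change −0.24 ± 0.04, edgeR adjusted p = 0.000196). Srf, the DNA-binding partner, had 56.6, 49.1 and 51.4 CPM in the Prdm16 libraries, against 41.8, 43.3 and 49.2 CPM in the Puro libraries. The lowest Prdm16 library lay just under the highest Puro library, and the log2 fold change was 0.23 ± 0.07 (edgeR adjusted p = 0.0105). Myocd, the coactivator of cardiac and smooth muscle, was too low to test, with 4, 1 and 1 counts in the Prdm16 libraries, against 6, 13 and 6 in the Puro libraries. Scaled counts over the groups gave a Puro over Prdm16 ratio of 4.09 (1.64 to 12.2, exact 95% limits for counting error).

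Fold changes differed by chromosome in this comparison. The median log2 fold change of all tested genes was −0.38 on chromosome 15, which carries Mkl1 and Myh9, and −0.15 on chromosome 16, which carries Mkl2, Mylk and Myh11. It was 0.49 on chromosome 14, with Vcl, Tnnc1 and Myh7, and 0.39 on chromosome 19, with Acta2 and Actn3. With the median of each chromosome removed, Mkl1 had a log2 fold change of −0.83, Myh9 −0.50 and Acta2 −3.35, all still called. Mkl2 had −0.08 (edgeR adjusted p = 0.0765), Vcl 0.07 (adjusted p = 0.138) and Actn1 −0.03 (adjusted p = 0.447), and these 3 were no longer called. The part of the chromosome medians in these genes' changes was not tested.

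**Figure D2:**
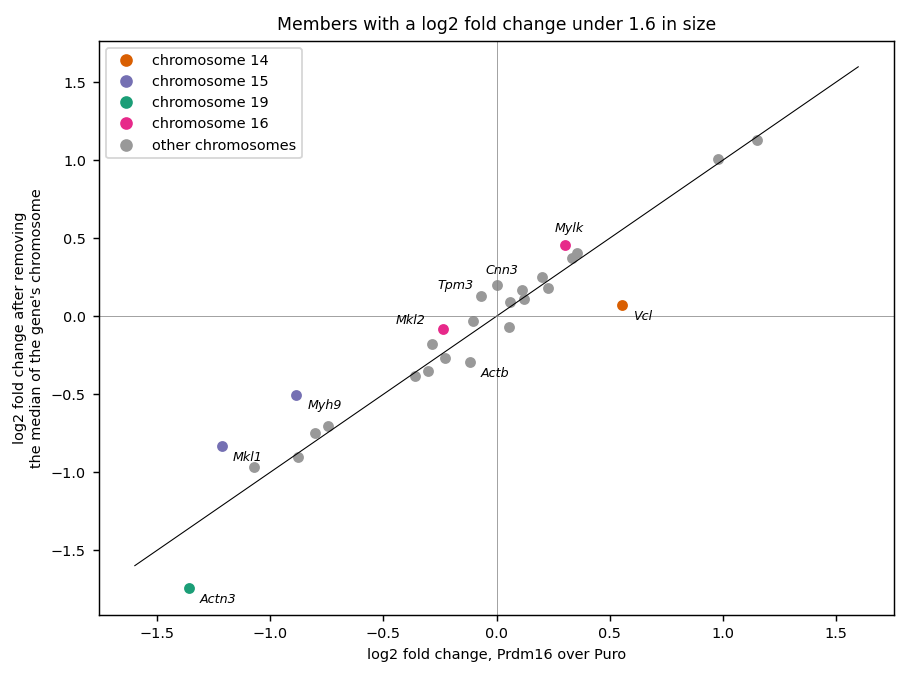
Log2 fold change, Prdm16 over Puro, of the members with smaller changes, as measured (horizontal axis) and after removal of the median of the gene's chromosome (vertical axis); the line marks equal values and colours mark chromosomes 14, 15, 16 and 19. Vcl lies at 0.56 on the horizontal and 0.07 on the vertical axis, and Mkl1 and Myh9 lie above the line but below 0.

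CArG boxes were searched in RefSeq promoter windows of build GRCm38.p6, which reach from 250 bases before to 50 bases after a gene's start and were found for 42 of the 51 genes. The element has 10 letters, 2 C followed by 6 letters that are each A or T and then 2 G, and it reads alike on both strands. It stood in a window of 9 of the 42 genes (21.4%) and of 488 of 27025 genes in the table of windows (1.81%). The 9 were Actg1, Vcl, Myl6 and Srf, which were higher in Prdm16, Myl9 and Cnn2, which were lower, and Actc1, Acta1 and Myl3, which were too low to test. Windows were found for all 14 genes called higher but for only 16 of the 21 called lower, so the directions were not searched equally. With 1 of the 6 middle letters allowed to be G or C, 13 of the 42 genes (31%) and 11.3% of all genes had a match, Acta2 among them. A match describes letters only, and binding was not measured. The 250 bases before the start are printed for 3 genes that fell, Acta2, Myl9 and Cnn2, and 3 that rose, Actg1, Vcl and Srf, to show the element in promoters of genes of either direction. The calls of Actg1, Vcl and Srf were each lost under at least 1 alternative setting, and those of Acta2, Myl9 and Cnn2 under none. Capitals mark the CArG letters, in Acta2 those with 1 departing letter.
Acta2, chr19:34255374-34255623, minus strand: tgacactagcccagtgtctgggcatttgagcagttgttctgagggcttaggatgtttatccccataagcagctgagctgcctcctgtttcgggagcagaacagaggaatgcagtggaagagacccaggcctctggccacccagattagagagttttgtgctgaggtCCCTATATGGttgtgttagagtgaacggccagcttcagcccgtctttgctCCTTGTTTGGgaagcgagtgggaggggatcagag
Myl9, chr2:156775214-156775463, plus strand: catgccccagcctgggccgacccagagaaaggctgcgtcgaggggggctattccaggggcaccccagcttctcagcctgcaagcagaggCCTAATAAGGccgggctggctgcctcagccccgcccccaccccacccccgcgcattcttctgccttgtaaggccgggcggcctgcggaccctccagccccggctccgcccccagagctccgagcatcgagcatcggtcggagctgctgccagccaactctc
Cnn2, chr10:79988350-79988599, plus strand: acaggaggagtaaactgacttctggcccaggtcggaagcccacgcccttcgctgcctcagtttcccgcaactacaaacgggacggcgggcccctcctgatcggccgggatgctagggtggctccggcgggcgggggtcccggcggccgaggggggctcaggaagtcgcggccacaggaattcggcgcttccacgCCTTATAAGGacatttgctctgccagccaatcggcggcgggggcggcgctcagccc
Actg1, chr11:120348496-120348745, minus strand: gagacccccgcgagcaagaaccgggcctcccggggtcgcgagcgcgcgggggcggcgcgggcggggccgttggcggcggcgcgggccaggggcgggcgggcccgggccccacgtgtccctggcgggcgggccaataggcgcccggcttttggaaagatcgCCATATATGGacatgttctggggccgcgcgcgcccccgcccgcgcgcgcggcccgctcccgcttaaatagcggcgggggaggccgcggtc
Vcl, chr14:20929148-20929397, plus strand: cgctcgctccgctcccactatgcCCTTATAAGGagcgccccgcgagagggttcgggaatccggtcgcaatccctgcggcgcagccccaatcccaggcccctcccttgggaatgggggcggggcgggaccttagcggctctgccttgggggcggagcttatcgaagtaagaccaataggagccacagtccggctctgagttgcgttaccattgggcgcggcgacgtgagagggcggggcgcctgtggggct
Srf, chr17:46556163-46556412, minus strand: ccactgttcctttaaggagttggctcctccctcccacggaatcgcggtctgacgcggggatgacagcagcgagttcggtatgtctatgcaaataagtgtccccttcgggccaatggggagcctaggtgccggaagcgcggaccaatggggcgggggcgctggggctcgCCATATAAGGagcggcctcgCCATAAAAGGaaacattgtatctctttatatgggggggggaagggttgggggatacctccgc
The first letter of the element lay 161 bases before the start in Myl9 and 56 in Cnn2, and 84 and 34 in Acta2. It lay 90 bases before the start in Actg1, 227 in Vcl, and 82 and 62 in Srf.

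Among the actins, the smooth muscle form fell steeply, and the cytoplasmic forms changed by smaller amounts in opposite directions. Acta2, alpha smooth muscle actin and the usual mark of myofibroblasts, had 27.7, 29.8 and 38.8 CPM in the Prdm16 libraries, against 258, 280 and 214 CPM in the Puro libraries. Every Prdm16 library lay far below every Puro library, with a log2 fold change of −2.97 ± 0.12 (SE, n = 3 each, edgeR adjusted p = 2.28e-09). Actb, the main cytoplasmic actin, had 1806, 1713 and 1781 CPM in the Prdm16 libraries, against 1844, 1917 and 1982 CPM in the Puro libraries (log2 fold change −0.12 ± 0.04, edgeR adjusted p = 0.0188). Actg1, the other cytoplasmic actin, had 301, 294 and 306 CPM in the Prdm16 libraries, against 269, 271 and 292 CPM in the Puro libraries (log2 fold change 0.11 ± 0.04, edgeR adjusted p = 0.0218). The groups did not overlap for either gene, but both calls were lost on leaving out a library, that of Actb without Prdm16 replicate 2 (log2 fold change −0.09) or Puro replicate 2 (−0.12). That of Actg1 was lost without Prdm16 replicate 3 (0.11), Puro replicate 1 (0.09) or Puro replicate 2 (0.10). With chromosome medians removed, Actb had −0.30 (adjusted p = 3.96e-05) and Actg1 0.17 (adjusted p = 0.00303). The remaining actins were close to the limit of detection. Actg2, enteric smooth muscle actin, had 0, 3 and 3 counts in the Prdm16 libraries, against 9, 11 and 1 in the Puro libraries. Acta1, skeletal actin, had 1, 3 and 8 counts in the Prdm16 libraries, against 1, 5 and 0 in the Puro libraries, and Actc1, cardiac actin, had no count in any library. Actin genes are alike in their coding parts and have processed copies in the genome, and how shared reads were counted is unknown here, so the split between actins is uncertain.

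Per kilobase of the longest protein-coding transcript, the share of each actin in its family can be compared within a library. Acta2 made up 1.23%, 1.38% and 1.73% of actin counts per kilobase in the Prdm16 libraries, against 10.4%, 10.8% and 8.17% in the Puro libraries. Actb made up 84.4% ± 0.411 in Prdm16 and 79% ± 1.07 in Puro (SD, n = 3 each). Actg1 made up 14.1% ± 0.185 in Prdm16 and 11.3% ± 0.377 in Puro (SD, n = 3 each). The summed level of the 6 actins was 2099 ± 53.9 CPM in Prdm16 and 2443 ± 62.8 CPM in Puro (SD, n = 3 each). For these 3 shares the exact two-sided permutation test gave p = 0.1, the smallest that 3 against 3 can give, and 0.129 after adjustment over the 22 shares compared in 6 families, so no share in any family could pass.

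**Figure D3:**
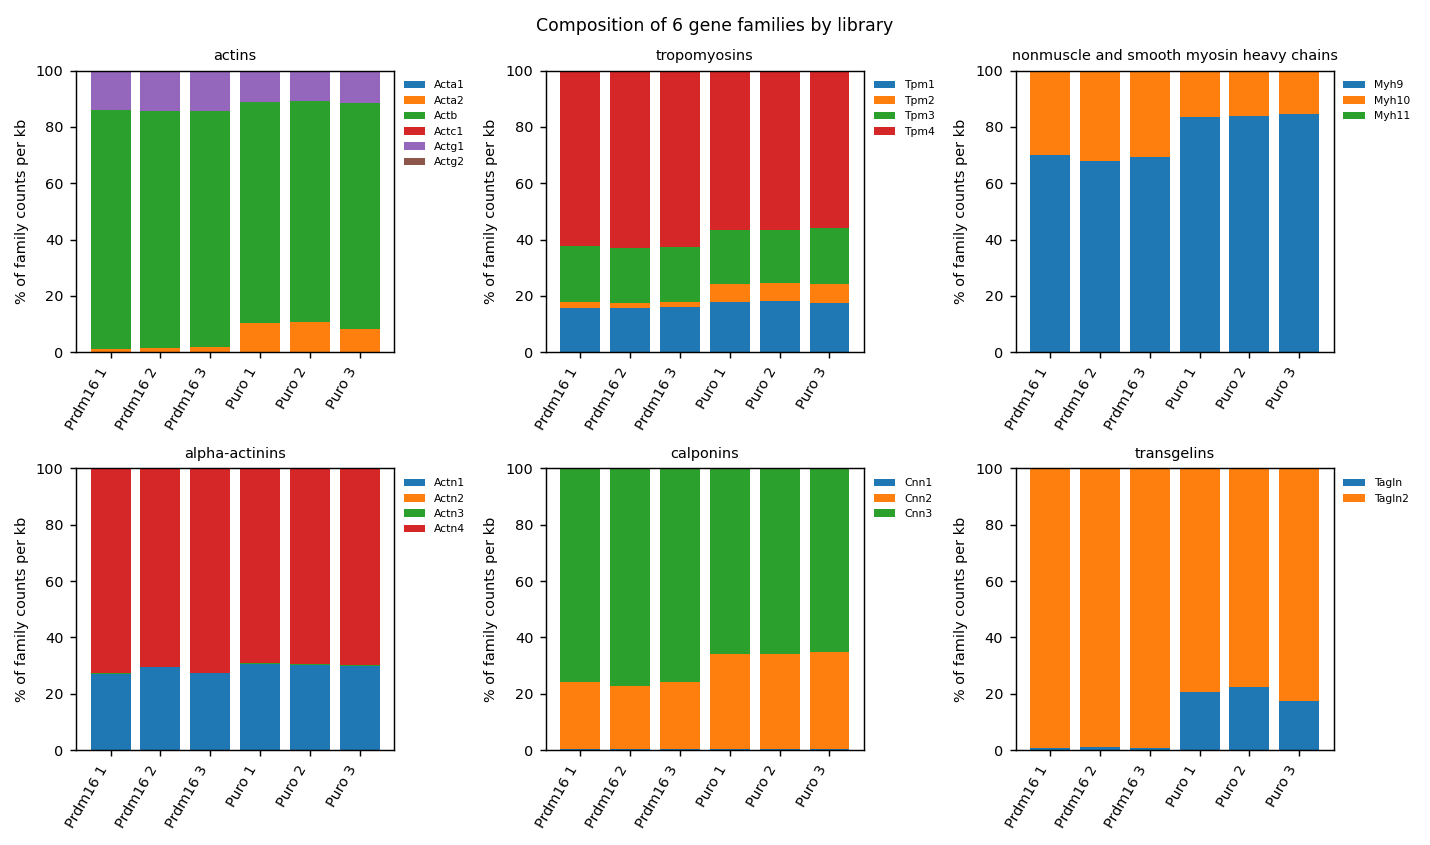
Share of each gene in its family's counts per kilobase of transcript (percent, vertical axis) as stacked bars, for 6 families, with the 3 Prdm16 libraries left of the 3 Puro libraries. Acta2, Tpm2, Myh9, Cnn2 and Tagln take smaller shares in every Prdm16 library, and Myh10, Tpm4, Cnn3 and Tagln2 larger ones.

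Of 8 calponins, transgelins and other actin-binding proteins, 2 rose, 5 fell and 1 did not pass. Tagln, also called SM22 alpha, an early smooth muscle marker, had 2.53, 3.18 and 3.06 CPM in the Prdm16 libraries, against 40.9, 43.9 and 33.8 CPM in the Puro libraries. Its groups were far apart (log2 fold change −3.77 ± 0.12, edgeR adjusted p = 2.62e-10). Tagln2, its widely expressed relative, went the other way, with 345, 337 and 357 CPM in the Prdm16 libraries, against 157, 153 and 158 CPM in the Puro libraries (log2 fold change 1.15 ± 0.04, edgeR adjusted p = 1.71e-10). Per kilobase, the share of Tagln in the pair was 0.832% ± 0.104 in Prdm16 and 20.1% ± 2.38 in Puro (SD, n = 3 each), and the summed level of the pair was 349 ± 10.2 CPM in Prdm16 and 195 ± 3.05 CPM in Puro (SD, n = 3 each).

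Cnn1, the calponin of differentiated smooth muscle, was low in both groups and fell, with 1.25, 1.49 and 1.89 CPM in the Prdm16 libraries, against 3.77, 2.84 and 3.16 CPM in the Puro libraries (log2 fold change −1.07 ± 0.18, edgeR adjusted p = 0.000199). Cnn2, found in smooth muscle and many nonmuscle cells, had 157, 149 and 164 CPM in the Prdm16 libraries, against 262, 266 and 259 CPM in the Puro libraries (log2 fold change −0.74 ± 0.04, edgeR adjusted p = 1.98e-08). Cnn3, acidic calponin, the most abundant of the family per kilobase, averaged 424 ± 11 CPM in Prdm16 and 424 ± 12.8 CPM in Puro (SD, n = 3 each). Its log2 fold change was 0.00 ± 0.04 (edgeR adjusted p = 0.987), turned to −0.02 under upper-quartile scaling, and became 0.20 and called with chromosome medians removed. Cald1, caldesmon, which restrains myosin on the thin filament, fell to 778 ± 20.2 CPM in Prdm16, against 961 ± 32.9 CPM in Puro (SD, n = 3 each), a log2 fold change of −0.30 ± 0.04. Lmod1, a leiomodin that seeds actin filaments in smooth muscle, had 5.11, 5.22 and 5.75 CPM in the Prdm16 libraries, against 7.93, 6.45 and 6.32 CPM in the Puro libraries (log2 fold change −0.36 ± 0.11, edgeR adjusted p = 0.0118). Without Puro replicate 1, its highest library, it had −0.25 and was not called (adjusted p = 0.0508). Smtn, smoothelin of contractile smooth muscle, had overlapping groups, with 52.4, 44.9 and 45.7 CPM in the Prdm16 libraries, against 39.1, 38.8 and 46.8 CPM in the Puro libraries (log2 fold change 0.20 ± 0.08, edgeR adjusted p = 0.0405). Its call was lost without Prdm16 replicate 1 (0.13), Puro replicate 1 (0.16) or Puro replicate 2 (0.15). With every library kept it was also lost under upper-quartile scaling (edgeR adjusted p = 0.0613) and a robust fit (edgeR adjusted p = 0.0609). A filter of 1 CPM or more in 3 libraries lost it as well (edgeR adjusted p = 0.0505).

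Among the myosin heavy chains the smooth muscle form and nonmuscle IIA fell and nonmuscle IIB rose. Myh11, the smooth muscle heavy chain, had 15, 13 and 17 counts in the Prdm16 libraries, against 122, 154 and 135 in the Puro libraries, that is 0.426, 0.449 and 0.509 CPM in the Prdm16 libraries, against 3.93, 4.41 and 4.02 CPM in the Puro libraries. Its level was low in both groups (log2 fold change −3.15 ± 0.16, edgeR adjusted p = 1.15e-08). Myh9, nonmuscle myosin IIA, had 1087, 1013 and 1051 CPM in the Prdm16 libraries, against 1887, 1904 and 2028 CPM in the Puro libraries (log2 fold change −0.88 ± 0.04, edgeR adjusted p = 5.73e-09). Myh10, nonmuscle myosin IIB, rose to 484, 499 and 485 CPM in the Prdm16 libraries, against 385, 382 and 380 CPM in the Puro libraries (log2 fold change 0.36 ± 0.03, edgeR adjusted p = 1.17e-06). Per kilobase, the share of Myh10 in the Myh9, Myh10 and Myh11 total was 30.8% ± 1.09 in Prdm16 and 15.8% ± 0.595 in Puro (SD, n = 3 each), and the summed level of these 3 was 1540 ± 30.4 CPM in Prdm16 and 2326 ± 75.1 CPM in Puro (SD, n = 3 each). The striated heavy chains were scarce. Myh7, of slow skeletal and cardiac muscle, had 11, 12 and 13 counts in the Prdm16 libraries, against 5, 3 and 3 in the Puro libraries (log2 fold change 1.70 ± 0.40, edgeR adjusted p = 0.00231), and 1.23 with chromosome medians removed. Myh7 passed the low-count filter through the Prdm16 libraries only. Myh1, an adult fast chain, had 0 counts over the Prdm16 group and 1 over the Puro group, and Myh3, the embryonic chain, had 1 count over the Prdm16 group and 2 over the Puro group.

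Of the myosin light chains and their kinase, Myl9 and Myl4 fell and Myl6, Myl1 and Mylk rose. Myl9, the regulatory light chain of smooth muscle, had 8.89, 9.88 and 10.5 CPM in the Prdm16 libraries, against 52.2, 56.7 and 47.3 CPM in the Puro libraries. The groups did not overlap (log2 fold change −2.42 ± 0.08, edgeR adjusted p = 4.02e-10). Myl6, the essential light chain of smooth and nonmuscle myosin, rose to 404 ± 20.6 CPM in Prdm16, against 320.3 ± 11.9 CPM in Puro (SD, n = 3 each), a log2 fold change of 0.34 ± 0.04. Mylk, the kinase that starts smooth muscle contraction by phosphorylating the regulatory light chain, rose to 45, 45.1 and 44.3 CPM in the Prdm16 libraries, against 37, 35.1 and 36.9 CPM in the Puro libraries (log2 fold change 0.30 ± 0.04, edgeR adjusted p = 5.26e-05), and 0.46 with chromosome medians removed. Myl1, a light chain of fast skeletal muscle, had 12, 9 and 16 counts in the Prdm16 libraries, against 0, 2 and 2 in the Puro libraries. The Prdm16 over Puro ratio was 9.43 (3.39 to 36.4, exact 95% limits for counting error), and the edgeR adjusted p was 0.00045. Myl1 passed the low-count filter through the Prdm16 libraries only. Myl4, of embryonic and atrial muscle, had 0.738, 1.07 and 0.929 CPM in the Prdm16 libraries, against 1.45, 1.40 and 1.88 CPM in the Puro libraries (log2 fold change −0.80 ± 0.20, edgeR adjusted p = 0.00392). Myl3, the slow and ventricular chain, had 2 counts over the Prdm16 group and 2 over the Puro group.

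Tropomyosins lie along the actin filament and govern the access of myosin, and 2 of 4 fell. Tpm2, beta-tropomyosin, had 32.8, 28.8 and 30.6 CPM in the Prdm16 libraries, against 99.8, 105 and 103 CPM in the Puro libraries. The groups were far apart (log2 fold change −1.74 ± 0.05, edgeR adjusted p = 9.5e-11). Tpm1, alpha-tropomyosin, had 307, 313 and 326 CPM in the Prdm16 libraries, against 387, 405 and 362 CPM in the Puro libraries (log2 fold change −0.29 ± 0.04, edgeR adjusted p = 0.00014), and −0.18 with chromosome medians removed. Tpm3 had a log2 fold change of −0.07 ± 0.03 (edgeR adjusted p = 0.0553) and Tpm4 one of 0.05 ± 0.04 (edgeR adjusted p = 0.226), and with chromosome medians removed these turned to 0.13 (adjusted p = 0.00298) and −0.07 (adjusted p = 0.145). Tpm3 was called lower under upper-quartile scaling (−0.09, adjusted p = 0.0196) and with a filter that asks for 1 CPM or more in 3 libraries (−0.08, adjusted p = 0.0353), so its direction and call depended on the setting. Per kilobase, the share of Tpm2 in the family was 2.04% ± 0.151 in Prdm16 and 6.38% ± 0.261 in Puro (SD, n = 3 each), and that of Tpm4 was 62.5% ± 0.308 in Prdm16 and 56.3% ± 0.452 in Puro (SD, n = 3 each). The table counts genes, so muscle and nonmuscle splice forms of the tropomyosins and of Cald1 and Vcl were not separated.

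**Figure D4:**
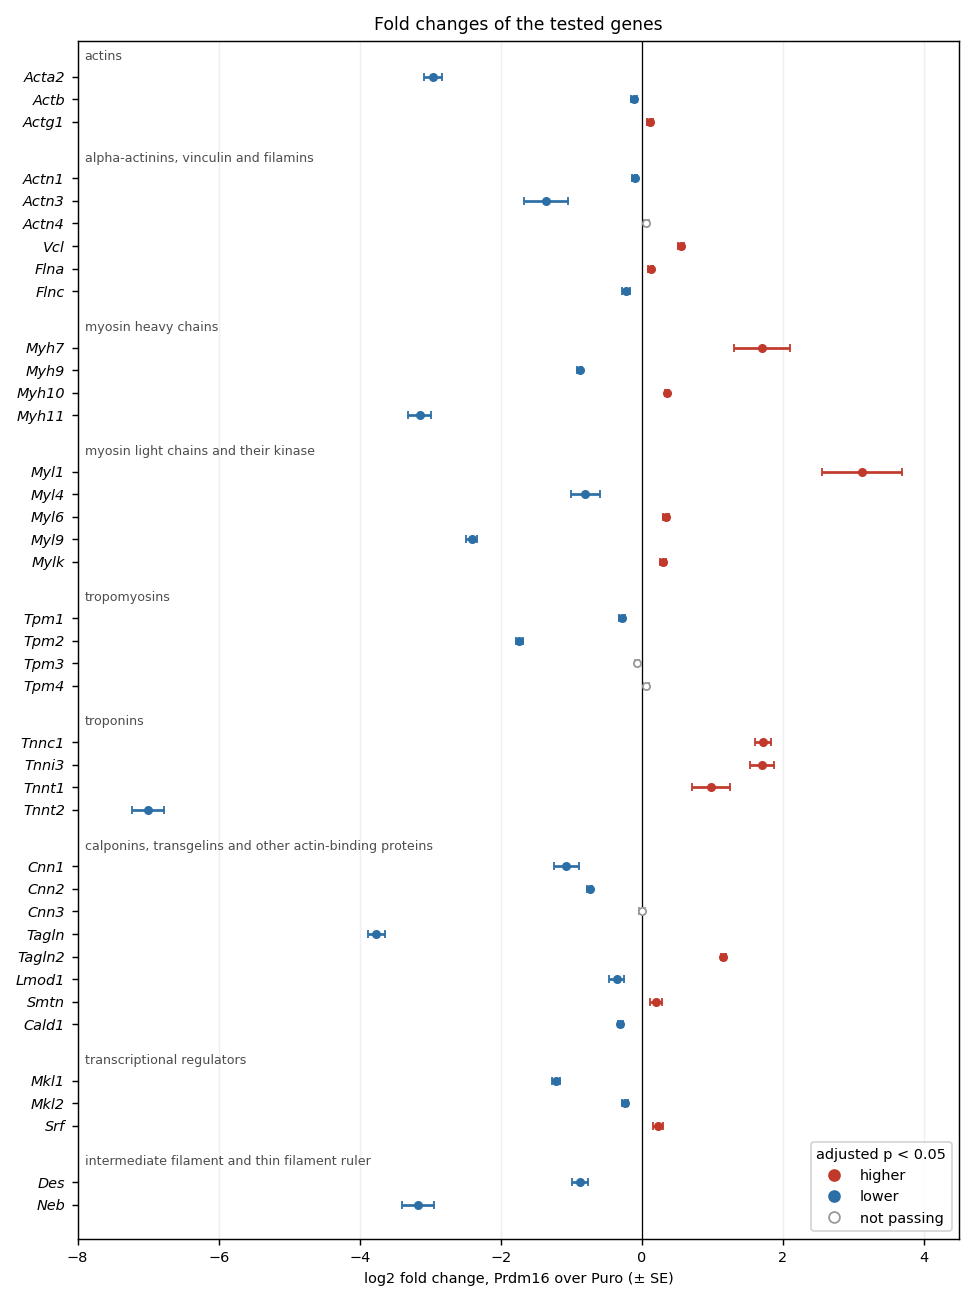
Log2 fold change of each tested gene, Prdm16 over Puro (horizontal axis), with its SE as a bar, grouped by role; filled points passed an adjusted p of 0.05 (red higher, blue lower) and open points did not. Tnnt2, at −7.00, and Tagln, at −3.77, lie furthest left, and Myl1, at 3.12, furthest right. Tnnt2, Myl1 and Myh7 passed the low-count filter through libraries of 1 group only.

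Troponins form the calcium switch of striated muscle, and of 4 tested 3 rose and 1 fell, all at low levels. Tnnt2, cardiac troponin T, which ties the complex to tropomyosin, had 2, 1 and 1 counts in the Prdm16 libraries, against 179, 205 and 187 in the Puro libraries. The Puro over Prdm16 ratio was 140.0 (54.4 to 516, exact 95% limits for counting error), and the log2 fold change was −7.00 ± 0.23 (edgeR adjusted p = 3.06e-10). Tnnt2 passed the low-count filter through the Puro libraries only, so a difference was built into its passing. Tnnc1, the calcium-binding subunit of cardiac and slow muscle, rose to 7.41, 7.88 and 9.08 CPM in the Prdm16 libraries, against 2.39, 2.55 and 2.47 CPM in the Puro libraries (log2 fold change 1.71 ± 0.11, edgeR adjusted p = 1.06e-07), with 1.23 after removal of the chromosome medians. Tnni3, cardiac troponin I, the inhibitory subunit, rose to 4.20, 3.28 and 3.09 CPM in the Prdm16 libraries, against 1.19, 1 and 1.07 CPM in the Puro libraries (log2 fold change 1.70 ± 0.17, edgeR adjusted p = 3.83e-06). Cardiac Tnnc1 and Tnni3 were higher in the libraries in which cardiac Tnnt2 was nearly absent. Tnnt1, slow skeletal troponin T, which neighbours Tnni3 on chromosome 7, had 70 counts over the Prdm16 group and 36 over the Puro group (log2 fold change 0.98 ± 0.27, edgeR adjusted p = 0.00603). Tnni2, the fast skeletal inhibitory subunit, was not tested and had 12, 8 and 8 counts in the Prdm16 libraries, against 0, 0 and 0 in the Puro libraries. Set against 3 counts over the Puro libraries together, its Prdm16 counts gave a scaled Prdm16 over Puro ratio of 9.52. This ratio leaves out the counting error of the Prdm16 counts. Tnnt3, fast troponin T, had 18 counts over the Prdm16 group and 7 over the Puro group, Tnni1, the slow inhibitory subunit, had 18 counts over the Prdm16 group and 27 over the Puro group, and Tnnc2, the fast calcium-binding subunit, had 7 counts over the Prdm16 group and 5 over the Puro group, none of them tested.

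Neb, nebulin, which lines the skeletal thin filament, had 16, 25 and 21 counts in the Prdm16 libraries, against 200, 224 and 151 in the Puro libraries (log2 fold change −3.18 ± 0.23, edgeR adjusted p = 2.03e-07). Over its very long transcript this was 0.0289 CPM per kilobase in Prdm16 and 0.257 in Puro. Des, desmin, the muscle intermediate filament that pericytes also make, had 4.52, 3.80 and 4.76 CPM in the Prdm16 libraries, against 7.45, 7.65 and 9.06 CPM in the Puro libraries (log2 fold change −0.88 ± 0.11, edgeR adjusted p = 3.28e-05).

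The tested proteins that cross-link actin and tie it to the membrane changed by less than 1 on the log2 scale, apart from Actn3. Vcl, vinculin of focal adhesions, rose to 553, 595 and 585 CPM in the Prdm16 libraries, against 406, 395 and 378 CPM in the Puro libraries (log2 fold change 0.56 ± 0.04, edgeR adjusted p = 2.35e-07), the call that was lost with chromosome medians removed. Flna, the widely expressed filamin, rose to 1712 ± 40.7 CPM in Prdm16, against 1572 ± 41.1 CPM in Puro (SD, n = 3 each), a log2 fold change of 0.12 ± 0.04. Flnc, the muscle filamin, fell to 300.4 ± 17.3 CPM in Prdm16, against 351 ± 31.4 CPM in Puro (SD, n = 3 each), a log2 fold change of −0.23 ± 0.06. Actn4 and Actn1 are the nonmuscle alpha-actinins, and Actn4 had a log2 fold change of 0.06 ± 0.04 (edgeR adjusted p = 0.137), and was called with chromosome medians removed (0.09, adjusted p = 0.0379). Actn1 had 202, 220 and 209 CPM in the Prdm16 libraries, against 228, 222 and 229 CPM in the Puro libraries (log2 fold change −0.10 ± 0.04, edgeR adjusted p = 0.0266). Its call was lost without Prdm16 replicate 1 (−0.07) or 3 (−0.10), without Puro replicate 1 (−0.10) or 3 (−0.10), and with DESeq2 (adjusted p = 0.055). Fitting with no low-count filter lost it as well (edgeR adjusted p = 0.084). Actn3, of fast muscle fibres, had 27, 10 and 24 counts in the Prdm16 libraries, against 38, 48 and 74 in the Puro libraries (log2 fold change −1.36 ± 0.31, edgeR adjusted p = 0.00194), and Actn2, the cardiac and skeletal form, had 6 counts over the Prdm16 group and 1 over the Puro group. Tpm2, Actn4, Tagln, Myl4, Vcl and Mkl1 overlap the protein-coding genes Car9, Capn12, Pcsk7, Cdc27, Ap3m1 and Sgsm3 in the RefSeq annotation, so their counts could hold reads of these neighbours if strand was not used.

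Lists of related genes are given by their counts, to be read against the 37.5% of all tested genes called higher and 38.0% called lower and the all-gene median of −0.01. Of 23 tested genes for myosin phosphorylation and its control, 11 were higher, 8 lower and 4 did not pass, with a median log2 fold change of 0.09, the calls being 47.8% and 34.8% of those tested. Ppp1r12b, a targeting subunit of myosin phosphatase, fell to 21.5 ± 0.981 CPM in Prdm16, against 51.1 ± 2.35 CPM in Puro (SD, n = 3 each), with a log2 fold change of −1.25 ± 0.05 (edgeR adjusted p = 2.57e-09). Its catalytic partner Ppp1cb rose (0.81 ± 0.04), the regulatory light chain Myl12b rose (0.83 ± 0.04) and Arhgef2, a guanine nucleotide exchange factor, fell (−0.65 ± 0.04). Of 39 genes for actin assembly and turnover, 17 were higher, 11 lower and 11 did not pass, with a median log2 fold change of 0.04, the calls being 43.6% and 28.2% of those tested. The formin Fmnl3 fell (−0.94 ± 0.04, and −0.56 with chromosome medians removed). The formin Diap3 (0.84 ± 0.04, and 0.36 so adjusted), the filament-capping Tmod2 (1.69 ± 0.09) and the cofilin phosphatase Ssh3 (1.18 ± 0.08, and 0.79 so adjusted) rose.

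Of 36 tested focal adhesion and stress fibre genes, 10 were higher, 22 lower and 4 did not pass, with a median log2 fold change of −0.30. These calls are 27.8% and 61.1% of those tested, beside 37.5% and 38.0% of all tested genes. Fhl2, a LIM-domain protein of heart and stress fibres, fell to 17.5 ± 0.410 CPM in Prdm16, against 197 ± 8.86 CPM in Puro (SD, n = 3 each), with a log2 fold change of −3.49 ± 0.05 (edgeR adjusted p = 7.32e-13). Csrp2, a LIM-domain protein of smooth muscle, rose to 162 ± 8.47 CPM in Prdm16, against 42.2 ± 0.880 CPM in Puro (SD, n = 3 each), with a log2 fold change of 1.94 ± 0.05 (edgeR adjusted p = 2.97e-11). Itga5, a subunit of the fibronectin receptor, fell (−0.77 ± 0.03, and −0.39 with chromosome medians removed).

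Of 39 further myosin, troponin and sarcomere genes, 30 were too low to test and 14 of these had no count in any library. Among the 9 tested, 3 were higher, 2 lower and 4 did not pass, with a median log2 fold change of 0.03, the calls being 33.3% and 22.2% of those tested. Myh14, nonmuscle myosin IIC, rose to 22.9 ± 3.81 CPM in Prdm16, against 4.67 ± 0.834 CPM in Puro (SD, n = 3 each), with a log2 fold change of 2.30 ± 0.14 (edgeR adjusted p = 6.6e-08). Myl6b, a light chain encoded beside Myl6, rose (0.85 ± 0.08). Mylk3, the cardiac light chain kinase, fell with 23 counts over the Prdm16 group and 75 over the Puro group (−1.66 ± 0.35). Of 19 tested muscle transcription factors, 7 were higher, 7 lower and 5 did not pass, with a median log2 fold change of 0.04, the calls being 36.8% and 36.8% of those tested. Mef2c, a partner of myogenic factors, rose to 56.1 ± 1.52 CPM in Prdm16, against 10.7 ± 0.297 CPM in Puro (SD, n = 3 each), with a log2 fold change of 2.38 ± 0.05 (edgeR adjusted p = 1.03e-11). Gata4 rose (1.73 ± 0.08, and 1.24 with chromosome medians removed), and Tbx20 fell (−2.05 ± 0.06).

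**Figure D5:**
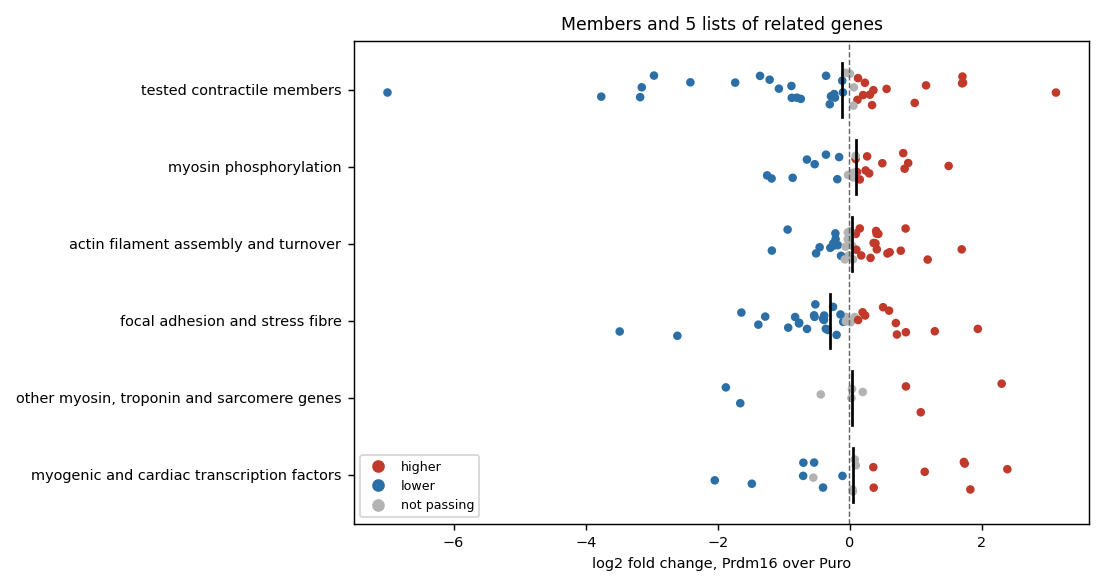
Log2 fold change, Prdm16 over Puro (horizontal axis), of the tested contractile genes and of the tested genes in 5 lists of related genes, coloured by call, with a black bar at each median and a dashed line at the median of all tested genes (−0.01). Higher and lower calls appear in each of the 6 rows, and the focal adhesion and stress fibre list has the lowest median, −0.30.

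Markers of other cells were read beside these values. Of 10 pericyte and vascular smooth muscle markers outside the 51 genes, 6 were tested, 2 rose and 4 fell. The summed level of the list was 464 to 479 CPM in Prdm16 libraries and 725 to 735 CPM in Puro libraries. Pdgfrb averaged 195 CPM in Prdm16 and 555 CPM in Puro, and the direction of the sum rested on Pdgfrb. Pdgfrb (−1.50 ± 0.03), Cspg4 (−3.95 ± 0.13), Rgs4 (−4.86 ± 0.22) and Rgs5 (−2.99 ± 0.68, with 5 counts over the Prdm16 group and 43 over the Puro group) fell, Mcam (3.16 ± 0.05) and Notch3 (0.69 ± 0.06) rose, and Kcnj8 had no count in any library. Rgs5 passed the low-count filter through the Puro libraries only. Pdgfrb lies on chromosome 18, where the median log2 fold change of all tested genes was −0.41, and it had −1.09 with chromosome medians removed. The part of such cells in the values of the 51 genes was not tested. Of 11 skeletal muscle markers, Myod1, Myog, Myf5, Myf6, Ckm and Cav3 had no count in any library, Mb alone was tested and was lower with 11 counts over the Prdm16 group and 43 over the Puro group, having passed the filter through the Puro libraries only, and the sum was 0.419 to 0.653 CPM in Prdm16 libraries and 0.581 to 0.954 CPM in Puro libraries. Of 8 cardiac markers, Nppa and Myl7 had no count and Tbx20 alone was tested and made up nearly all of the sum of 10.3 to 12.1 CPM in Prdm16 libraries and 43.3 to 46.3 CPM in Puro libraries. Without Tbx20 the sum was 0.114 to 0.380 CPM in Prdm16 libraries and 0.115 to 0.161 CPM in Puro libraries, and Myh6 had 13 counts over the Prdm16 group and 2 over the Puro group.

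Fibroblast and progenitor markers summed to 3069 to 3363 CPM in Prdm16 libraries and 7074 to 7739 CPM in Puro libraries, with 3 higher and 5 lower of 9 tested. Pdgfra averaged 188 ± 6.64 CPM in Prdm16 and 199 ± 9.57 CPM in Puro (SD, n = 3 each), and the stem cell antigen Ly6a rose to 988 ± 25.1 CPM in Prdm16, against 376 ± 9.20 CPM in Puro (SD, n = 3 each), with a log2 fold change of 1.39 ± 0.04 (edgeR adjusted p = 4.05e-11). Icam1 (0.77 ± 0.21) and Lum (2.64 ± 0.45, which passed the filter through the Prdm16 libraries only) were also higher. The collagens Col1a1 (−3.55 ± 0.13) and Col3a1 (−1.41 ± 0.04) fell. The 9 markers other than these collagens summed to 1154 to 1216 CPM in Prdm16 libraries and 586 to 618 CPM in Puro libraries. The direction of the full sum thus rested on the collagens. Ly6a made up most of the sum of these 9 in both groups, and the direction of that sum rested on Ly6a. Cd34, Dcn and Thy1 were lower, Thy1 after passing the filter through the Puro libraries only. The progenitor marker Cd34 had 0.952 CPM in Prdm16 and 16.4 CPM in Puro. Macrophage markers summed to 8.42 to 8.63 CPM in Prdm16 libraries and 14.2 to 15.4 CPM in Puro libraries, with Emr1 at 0 and Cd14 lower, and Lyz2 lower after passing the filter through the Puro libraries only. Cd68, the largest part of the Prdm16 sum, leaned the other way. It averaged 4.60 CPM in Prdm16 and 3.85 CPM in Puro and was not called (log2 fold change 0.26 ± 0.11, edgeR adjusted p = 0.0521). Endothelial markers summed to 9.46 to 12.2 CPM in Prdm16 libraries and 3.58 to 3.96 CPM in Puro libraries, with Cdh5 at 0, Tek higher and Vwf lower. Tek averaged 10.2 CPM in Prdm16 and 1.19 CPM in Puro, and the direction of the endothelial sum rested on Tek. Mammary epithelial markers summed to 29.3 to 29.9 CPM in Prdm16 libraries and 18.1 to 19.4 CPM in Puro libraries, with at most 3 counts of Krt5 or Krt14 over a group, Trp63 lower, and Krt18 and Epcam higher after passing the filter through the Prdm16 libraries only. Krt18 averaged 13.3 CPM in Prdm16 and 0.0684 CPM in Puro, and the direction of the mammary sum rested on Krt18. The part of these cells in the members' values was not tested.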

How the data were processed

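RNA was sequenced in 3 Prdm16 and 3 Puro libraries, made with Illumina TruSeq chemistry per the labels. The submitters' processing notes name STAR, featureCounts, Subread and mouse build mm9, with no role, order or version. The authors deposited raw, unnormalized counts by gene symbol, in libraries of 28169059 to 35798201 counts, and the sources used here do not state the strand setting or how reads shared by paralogs were counted.

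The whole table was fitted with edgeR 4.0.16 in R 4.3.3: filterByExpr by group, TMM scaling, a quasi-likelihood test of the group term, and SE from the fold change and F statistic. The fit was also run on simulated counts that had a single common dispersion and far fewer changed genes than were called here. That run therefore says nothing about error rates in these data. Chromosomes, gene order, promoters and transcript lengths came by symbol from mouse build GRCm38, not the authors' build. Replicate pairs differed by a chi-square of 2.08 to 8.85 per gene, above counting noise, which library preparation can also give, and each library was counted as 1 replicate, as labelled. Alternatives were RLE and upper-quartile scaling, other filters, a robust fit, limma-voom (limma 3.58.1), DESeq2 1.42.0, a replicate block, Prdm16 left out, another prior count, chromosome medians removed, a stricter threshold and each library left out.

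The genes and lists were chosen with earlier results of these data known. All 51 genes could be named, and from each related list up to 4 tested genes with the smallest p; some genes that this rule names are not reported here.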

Additional observations from a re-analysis of the deposited data

How the results depend on the processing

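Of the 35 called members, 27 kept direction and call under each of the 18 alternatives that tested them, and 8 (Actb, Actg1, Actn1, Vcl, Lmod1, Smtn, Mkl2 and Srf) lost the call under at least 1, Srf only at an adjusted p of 0.01. Deviations from the group means correlated at −0.16, 0.10 and −0.07 between libraries of the same replicate number. Between different numbers the correlations ran from −0.19 to 0.25. Deviations from a mean of 3 libraries depend on each other, so these values cannot show whether replicate numbers pair the libraries. With the number as a replicate block, 10089 of all genes were called, against 10430 without it, and Actb (adjusted p = 0.0551) and Actn1 (0.0631) lost their calls. The members' median log2 fold change of −0.12 became −0.238 with at least 1 CPM in at least 3 libraries, where fewer genes were tested, −0.0829 with chromosome medians removed, and −0.144 to −0.097 with a library left out. The same filter left 0 of the 2 lower calls among further sarcomere genes, both under 1 CPM. With chromosome medians removed Tpm3 reversed to 0.128 and Tpm4 to −0.0671, and the cause was not tested. Cnn3, near 0, reversed to −0.0174 with upper-quartile scaling and −0.0055 with the filter, and ran from −0.0241 to 0.0289 with a library left out. Depth limits the 12 untested genes, at most 28 counts over a group.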
